A study of Mus musculus with 8 samples.

Results

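The genes described here are 45 genes of G2 and mitosis, the last phases of the cell cycle. They were measured in cultures of mouse leukaemic cells, with or without a treatment meant to induce deletion of Runx1 and Cbfb. Probe sets of the array were matched to the 45 symbols through the platform annotation, using only probe sets with 1 symbol and the brightest probe set of each gene. This gave 44 measured genes of the 19938 genes measured in all. Ccnb1, the gene of cyclin B1, had no such probe set in that annotation and is not analysed here. No filter on low values was applied, so all 44 measured genes entered every count.

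The study used c-Kit-positive bone marrow cells of Runx1/Cbfb double floxed mice, transduced with MLL-AF9, a leukaemia fusion gene, and with CreERT2, whose Cre activity depends on 4-hydroxytamoxifen (4OHT), coexpressed with puromycin resistance. After replating with puromycin, cultures labelled Runx1Cbfb-KO received 4OHT at 1 µM for 24 h and cultures labelled Control received ethanol, in cytokine-containing methylcellulose. Each group had 4 arrays, 2 biological replicates of each of 2 clones, and the Runx1Cbfb-KO and Control cultures that share a clone and a number form a set, giving 4 sets. All cultures carried the floxed alleles, MLL-AF9 and CreERT2. No culture received 4OHT without floxed genes, so effects of 4OHT, of active Cre and of the deletion cannot be told apart. Neither the age of the mice nor the way the clones were derived is given in these sources.

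Entry into mitosis is driven by CDK1 bound to cyclins A and B. Polo-like and Aurora kinases and CDC25 phosphatases reinforce it, and the spindle, built with kinesins and microtubule-binding proteins, attaches to kinetochores on the centromeres. The spindle assembly checkpoint holds back the anaphase-promoting complex until attachment is complete, after which separase releases the chromatids and the cell divides. Transcripts of these genes peak together in G2 and mitosis, when the MuvB complex with B-MYB and FOXM1 acts at their promoters, and in arrested cells the related DREAM complex keeps them low. Their levels in a culture are therefore widely read as a measure of how many cells are cycling. In a bulk culture, fewer cells in G2 and mitosis and less RNA per such cell cannot be told apart.

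The promoter elements that these genes are known to share were looked up in RefSeq promoters of the build GRCm38.p6, which run from 250 bases before to 50 bases after each start. Such a promoter was in the table for 38 of the 45 genes. The cell cycle genes homology region, called CHR, was searched as TTTGAA or TTCGAA and the box bound by the factor NF-Y as CCAAT, each on either strand. TTTGAA or TTCGAA occurred in 29 of the 38 genes (76.3%), against 21.7% of the 27025 genes with a promoter in the table. CCAAT occurred in 29 of 38 (76.3%), against 41.1%. Both occurred in 25 of 38 (65.8%), against 9.7%. A match to these letters is a description and not a measured binding site. The stretches from 100 bases before to 30 bases after the start are shown for 5 genes on which the results below turn, written 5′ to 3′ on the strand of the gene, with both elements in capitals.
Cenpa (chr5:30666786-30666915, plus strand): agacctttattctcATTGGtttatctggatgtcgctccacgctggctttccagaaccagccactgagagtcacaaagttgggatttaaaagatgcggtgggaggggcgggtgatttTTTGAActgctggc
Psrc1 (chr3:108383704-108383833, plus strand): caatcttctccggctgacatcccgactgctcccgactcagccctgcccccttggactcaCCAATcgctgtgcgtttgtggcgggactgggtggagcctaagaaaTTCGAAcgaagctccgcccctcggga
Ccnb2 (chr9:70421525-70421654, minus strand): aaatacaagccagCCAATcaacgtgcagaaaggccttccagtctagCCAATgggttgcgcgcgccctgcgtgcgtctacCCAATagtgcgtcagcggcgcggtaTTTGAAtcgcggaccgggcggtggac
Cdk1 (chr10:69352883-69353012, minus strand): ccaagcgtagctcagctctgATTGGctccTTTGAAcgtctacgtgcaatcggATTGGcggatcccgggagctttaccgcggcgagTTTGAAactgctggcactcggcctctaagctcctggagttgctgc
Nek2 (chr1:191821373-191821502, plus strand): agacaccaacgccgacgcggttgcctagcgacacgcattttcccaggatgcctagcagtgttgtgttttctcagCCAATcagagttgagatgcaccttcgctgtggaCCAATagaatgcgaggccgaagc
The stretch of Ccnb2 held 3 CCAAT boxes and 1 TTTGAA, and that of Cdk1 held 2 of each. The stretch of Nek2 held 2 CCAAT boxes and neither TTTGAA nor TTCGAA. Psrc1 has a further start in the table, 34 bases downstream, whose stretch holds the same TTCGAA.

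Before the changes are described, the arrays need a remark. The values are log2 levels, made by the authors with RMA, which already normalizes between arrays. Array medians were 6.26 to 6.30 for 7 arrays and 6.39 for the Runx1Cbfb-KO array of clone 2, replicate 2. That array also had the smallest spread over probe sets (SD 2.39, against 2.42 to 2.44 in the others). Values without it or its set are given for Cenpe, Cenpf, Spc25, Hmmr, Birc5, Mad2l1 and Kif20b, for the median over the 44 genes, for the clone comparisons and for the common pattern over arrays. Of the 14 markers of myeloid progenitors and the MLL-AF9 program, all were measured, and Mpo averaged 13.02 in Runx1Cbfb-KO arrays and 13.06 in Control arrays. Of this list, 5 genes passed the test between the groups, all lower in Runx1Cbfb-KO arrays, against 0.953% of all genes that passed. Among the 5 were Cebpa, lower by 0.66, and Kit, lower by 0.36 on the log2 scale (limma adjusted p = 0.00128 and 0.00404). Of the 43 measured markers of erythroid, megakaryocyte, mast, lymphoid, macrophage and stromal cells, 0 passed between the groups (limma; 3 at an unadjusted p under 0.05).

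The targeted genes check the labels only in part, since whole-transcript probe sets read many exons and need not cover the deleted ones. Runx1 was at 10.58, 10.64, 10.87 and 11.19 in the arrays labelled Runx1Cbfb-KO, against 10.05, 10.12, 10.31 and 10.71 in Control arrays, with the values of each group in the order clone 1 replicates 1 and 2, then clone 2 replicates 1 and 2. It was higher in 4 of 4 sets, which goes against the label (0.52 ± 0.04 on the log2 scale, limma adjusted p = 1.64e-05). Here and below, the ± of a log2 difference is the moderated SE of limma, whose spread is partly borrowed from other genes. Cbfb was at 9.81, 9.89, 9.70 and 9.60 in the arrays labelled Runx1Cbfb-KO, against 10.02, 9.97, 9.87 and 9.87 in Control arrays, and did not pass (-0.18 ± 0.05; adjusted p = 0.128). Every direction below follows the labels.

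After 24 h, none of the 44 genes passed the test between Runx1Cbfb-KO and Control arrays. Among all 19938 genes, 190 passed (limma with the set as a block, adjusted p under 0.05), which is 0.953%, so fewer than 1 call would fall on 44 genes at that rate. At an unadjusted p under 0.05 there was 1 of the 44 (2.27%), Psrc1, against 1289 of all genes (6.47%). The log2 difference was above 0 for 23 genes and below 0 for 21, with a median of 0.0029, against 0.00018 over all genes. Its median size without regard to sign was 0.023, against 0.042 over all genes and 0.38 among the 190 that passed. Of the 44, 38 lay in the top quartile of all genes by mean level, and these backgrounds were not matched for level.

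The intervals give the size of change that the 4 sets still allow. The 95% interval of the difference lay within 1.1-fold either way for 25 of the 44 genes, and within 1.2-fold for 43 of the 44. Over all genes these shares were 17.5% and 82.2%. Those genes were not matched for level, and the fit lets the SE depend on level through a mean-variance trend. Without that trend the SE rose from 0.025 to 0.046 for Ccna2 and from 0.027 to 0.047 for Plk1. For the dimmer Cdc25b it fell from 0.070 to 0.052. The part of level in the narrow intervals was not tested. The lowest bound of any of the 44 was that of Cdc25b (log2 -0.25, 1.19-fold lower) and the highest that of Psrc1 (log2 0.30, 1.23-fold higher). The moderated SE ran from 0.025 for Ccnb2 to 0.072 for Cdc25c. These intervals treat the sets as if independent, but only 2 clones underlie them, and the spread is partly borrowed from other genes. Fitted without the set as a block, 0 of 19938 genes passed (317 at an unadjusted p under 0.05), and 0 of the 44.

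**Figure D1:**
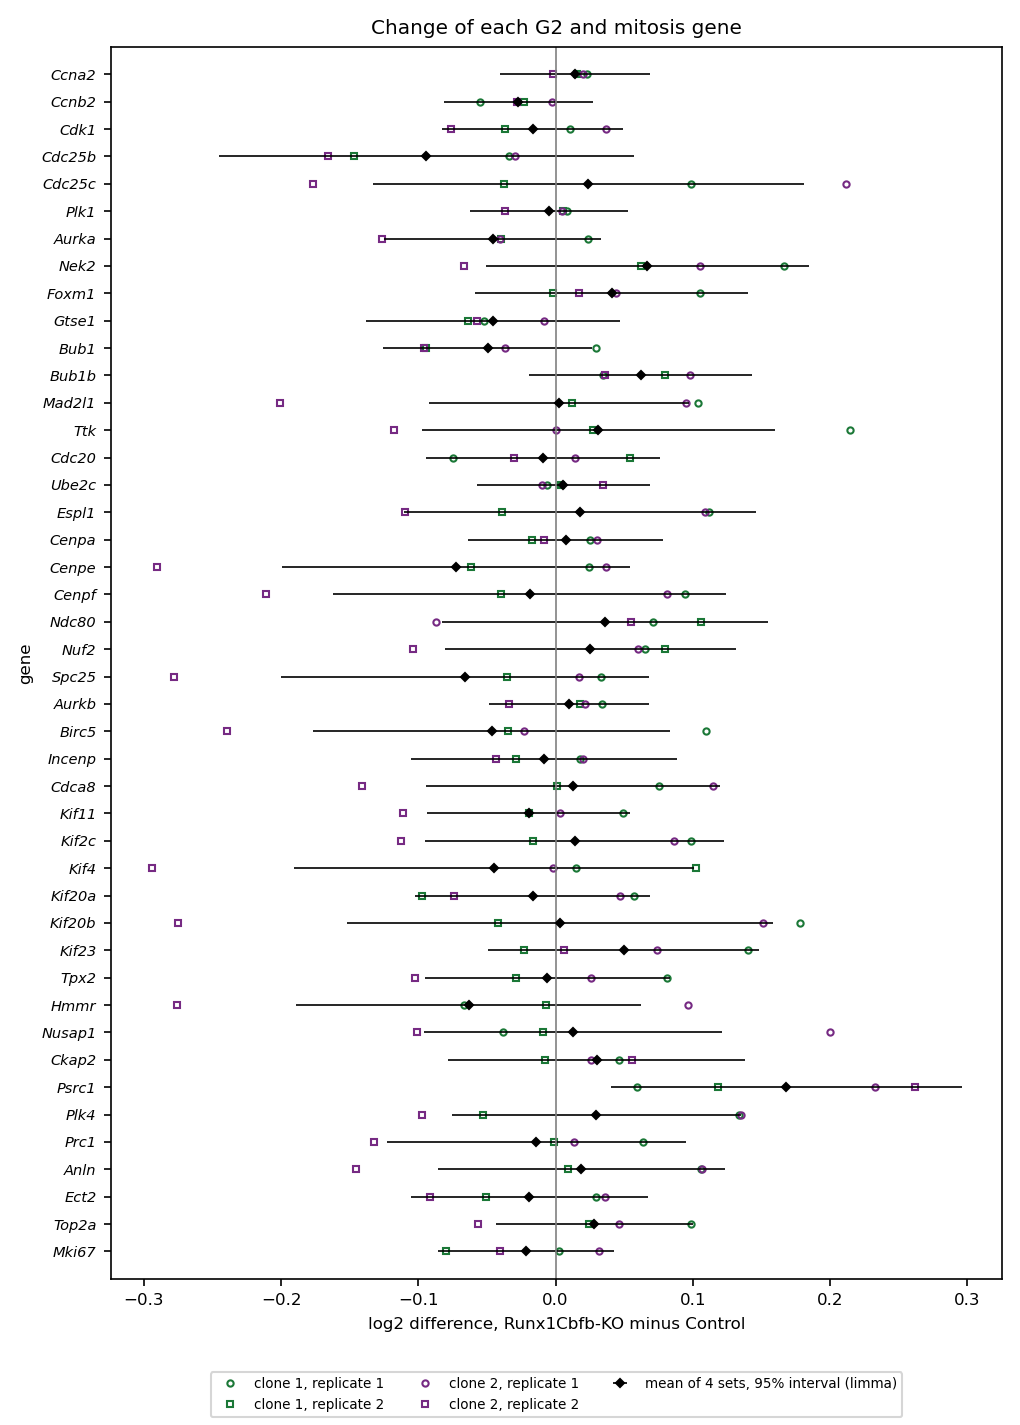
Log2 difference, Runx1Cbfb-KO minus Control, for each of the 44 genes grouped by role from top to bottom. Black diamonds with bars are the mean over 4 sets with its 95% interval from limma, and open symbols are the 4 sets (circle, replicate 1; square, replicate 2; green, clone 1; purple, clone 2). The interval of Psrc1 alone lies off 0, from 0.04 to 0.30, and its call did not survive adjustment over all genes (adjusted p = 0.412).

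Among the cyclins, CDK1 and the kinases and phosphatases of mitotic entry, 10 of 11 genes were measured and 0 passed, with a median difference of -0.010. Cdk1, the mitotic kinase itself, was at 11.62, 11.38, 11.39 and 11.27 in Runx1Cbfb-KO arrays, against 11.61, 11.41, 11.35 and 11.34 in Control arrays. The groups overlapped, and clone 1 replicate 1 was the highest array in each (-0.02 ± 0.03, moderated SE, n = 4 sets). Ccna2, the gene of cyclin A, was at 11.87, 11.87, 11.84 and 11.73 in Runx1Cbfb-KO arrays, against 11.85, 11.85, 11.82 and 11.73 in Control arrays. Its sets differed by 0.02 at most.

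Ccnb2, a B-type cyclin that binds CDK1, was at 12.01, 11.86, 11.84 and 11.82 in Runx1Cbfb-KO arrays, against 12.06, 11.88, 11.85 and 11.85 in Control arrays. Its Runx1Cbfb-KO array was the lower in 4 of 4 sets, by 0.03 on average (-0.03 ± 0.03), and the groups overlapped. Cdc25b, a phosphatase that activates CDK1, had the most negative difference of the 44, at 7.90, 7.75, 7.54 and 7.42 in Runx1Cbfb-KO arrays and 7.94, 7.90, 7.57 and 7.59 in Control arrays. It was lower in 4 of 4 sets (-0.09 ± 0.07, 95% interval -0.25 to 0.06; adjusted p = 1), and both sets of replicate number 2 had the larger differences. Gtse1, which encodes a microtubule-binding protein of G2 and mitosis, was the other gene below 0 in 4 of 4 sets (-0.05 ± 0.04). Such a run is not rare: 3 of the 44 genes (6.82%) were below 0 in all sets, against 6.54% of all genes, and 2 (4.55%) were above 0 in all sets, against 6.63%.

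Plk1, the polo-like kinase of mitotic entry, differed by -0.0044 ± 0.027 and Aurka, a kinase of the centrosomes and spindle poles, by -0.05 ± 0.04. Cdc25c, another CDK1 phosphatase, was at 8.45, 8.24, 8.47 and 8.17 in Runx1Cbfb-KO arrays, against 8.35, 8.28, 8.26 and 8.35 in Control arrays. Its sets disagreed, at 0.21 in clone 2 replicate 1 and -0.18 in clone 2 replicate 2. Nek2, a centrosomal kinase, had a difference of 0.07 ± 0.05, the highest of the role group. Foxm1, the transcription factor that switches many of these genes on, was at 9.60, 9.62, 9.63 and 9.70 in Runx1Cbfb-KO arrays and 9.49, 9.62, 9.59 and 9.69 in Control arrays (0.04 ± 0.05).

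The 7 genes of the spindle assembly checkpoint and of anaphase gave 0 calls and a median of 0.0056. Bub1, a checkpoint kinase, was lowest among them (-0.05 ± 0.04), and Bub1b, the gene of the checkpoint protein BUBR1, highest (0.06 ± 0.04). Bub1b was at 10.45, 10.42, 10.36 and 10.44 in Runx1Cbfb-KO arrays, against 10.42, 10.34, 10.26 and 10.40 in Control arrays. It was above 0 in 4 of 4 sets, and the groups overlapped. Mad2l1, the gene of the checkpoint protein MAD2, averaged 11.56 in both groups, but its sets ran from 0.10 in clone 1 replicate 1 to -0.20 in clone 2 replicate 2, and its difference without that set was 0.07 ± 0.03.

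Ttk, the kinase MPS1 at the head of the checkpoint, differed by 0.03 ± 0.06, with 0.21 in clone 1 replicate 1 and -0.12 in clone 2 replicate 2. Cdc20, the activator of the anaphase-promoting complex that the checkpoint restrains, differed by -0.0091 ± 0.039. Ube2c, the ubiquitin-conjugating enzyme of that complex, was at 11.33, 11.36, 11.32 and 11.24 in Runx1Cbfb-KO arrays, against 11.34, 11.36, 11.33 and 11.21 in Control arrays. Its largest set difference was 0.03. Espl1, which encodes separase, the protease that cuts cohesin, had a difference of 0.02 ± 0.06.

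Of the 6 kinetochore and centromere genes, 0 passed, with a median of -0.0056. Cenpa, the histone H3 variant that marks centromeres, was at 11.34, 10.99, 10.64 and 10.55 in Runx1Cbfb-KO arrays, against 11.31, 11.01, 10.61 and 10.56 in Control arrays. The 2 arrays of a set differed by 0.03 at most (mean difference 0.0076 ± 0.033), while the clones stood apart, as described below. Cenpe, a kinetochore motor, was at 9.57, 9.57, 9.60 and 9.17 in Runx1Cbfb-KO arrays and 9.54, 9.63, 9.57 and 9.46 in Control arrays. Its low value was that of clone 2 replicate 2 (overall -0.07 ± 0.06, and 5.33e-05 ± 0.048 without that set). Cenpf, a large kinetochore protein, and Spc25, a subunit of the NDC80 complex that grips microtubules, had the same low array, at -0.21 and -0.28 in that set, and their differences without it were 0.05 ± 0.06 and 0.0049 ± 0.052. The other NDC80 complex genes, Ndc80 and Nuf2, differed by 0.04 ± 0.05 and 0.03 ± 0.05.

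The 4 genes of the chromosomal passenger complex, which corrects wrong attachments, gave 0 calls and ran from -0.05 for Birc5 to 0.01 for Cdca8, the gene of borealin. Aurkb, its kinase, was at 11.81, 11.65, 11.71 and 11.68 in Runx1Cbfb-KO arrays, against 11.77, 11.63, 11.69 and 11.71 in Control arrays (0.0098 ± 0.027). Incenp, the scaffold of the complex, differed by -0.0085 ± 0.045. Birc5, which encodes survivin, averaged 9.20 ± 0.16 in Runx1Cbfb-KO arrays and 9.25 ± 0.02 in Control arrays (SD, n = 4 each). Its highest and its lowest array were both Runx1Cbfb-KO arrays, clone 1 replicate 1 and clone 2 replicate 2. Without the set of clone 2 replicate 2 its difference was 0.02 ± 0.05.

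The 6 kinesin genes ran from -0.04 (Kif4, a chromosome-bound motor) to 0.05 (Kif23, a motor of the central spindle), with a median of -0.0067. Kif4 was at -0.29 in the set of clone 2 replicate 2. It was at 0.02 and 0.10 in the sets of clone 1 and at -0.0015 in clone 2 replicate 1. Kif11, the motor that pushes spindle poles apart and the target of several mitotic inhibitors, differed by -0.02 ± 0.03. Kif20b, a motor of cytokinesis, was at 9.34, 9.10, 9.18 and 8.78 in Runx1Cbfb-KO arrays, against 9.17, 9.14, 9.03 and 9.05 in Control arrays. It was higher in both sets of replicate number 1 (0.18 and 0.15) and lower in both sets of number 2 (-0.04 and -0.28), so its average of 0.0033 hides opposed sets. Without the set of clone 2 replicate 2 it was 0.10 ± 0.06. Kif2c, a kinesin that takes microtubules apart, and Kif20a, a motor of the central spindle, differed by 0.01 ± 0.05 and -0.02 ± 0.04.

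Psrc1 led the 6 genes of spindle, centriole and microtubule proteins, whose median was 0.021. It encodes a protein that binds microtubules of the spindle. Psrc1 was at 8.78, 8.76, 9.13 and 8.74 in Runx1Cbfb-KO arrays, against 8.72, 8.64, 8.89 and 8.48 in Control arrays. The groups overlapped, but within sets the Runx1Cbfb-KO array was higher in 4 of 4, by 0.06, 0.12, 0.23 and 0.26. The average was 0.17 ± 0.06 (moderated SE, n = 4 sets), a 1.12-fold higher level with a 95% interval of 1.03 to 1.23. It did not pass over all genes (limma adjusted p = 0.412). The difference between its change in clone 2 and in clone 1 was 0.16 ± 0.12, which did not pass either (adjusted p = 1).

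Hmmr, the gene of a spindle protein, was at 9.74, 9.77, 9.76 and 9.30 in Runx1Cbfb-KO arrays, against 9.81, 9.77, 9.66 and 9.57 in Control arrays (-0.06 ± 0.06, and 0.0076 ± 0.048 without the set of clone 2 replicate 2). Nusap1, the gene of a microtubule bundler, was at 10.33, 10.14, 10.30 and 9.92 in Runx1Cbfb-KO arrays, against 10.37, 10.15, 10.10 and 10.02 in Control arrays (0.01 ± 0.05). In both, clone 2 replicate 2 was the lowest array of each group. Tpx2, an activator of Aurora A, Ckap2, a microtubule-associated protein, and Plk4, the kinase of centriole duplication, had differences of -0.0061 ± 0.041, 0.03 ± 0.05 and 0.03 ± 0.05.

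The 3 genes of cytokinesis, Prc1, Anln and Ect2, which encode a central spindle bundler, the scaffold anillin and the activator of RHOA, differed by -0.01 ± 0.05, 0.02 ± 0.05 and -0.02 ± 0.04. Mki67, the proliferation antigen Ki-67, was at 11.58, 11.54, 11.51 and 11.45 in Runx1Cbfb-KO arrays, against 11.58, 11.62, 11.48 and 11.50 in Control arrays. The groups overlapped and the difference was -0.02 ± 0.03, with a 95% interval of -0.09 to 0.04. Top2a, the topoisomerase that disentangles chromosomes, was at 11.43, 11.32, 11.26 and 11.07 in Runx1Cbfb-KO arrays, against 11.34, 11.30, 11.21 and 11.12 in Control arrays (0.03 ± 0.03). A dimmer probe set of Top2a, which was not used, had a mean level of 3.99 and a difference of -0.0034.

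**Figure D2:**
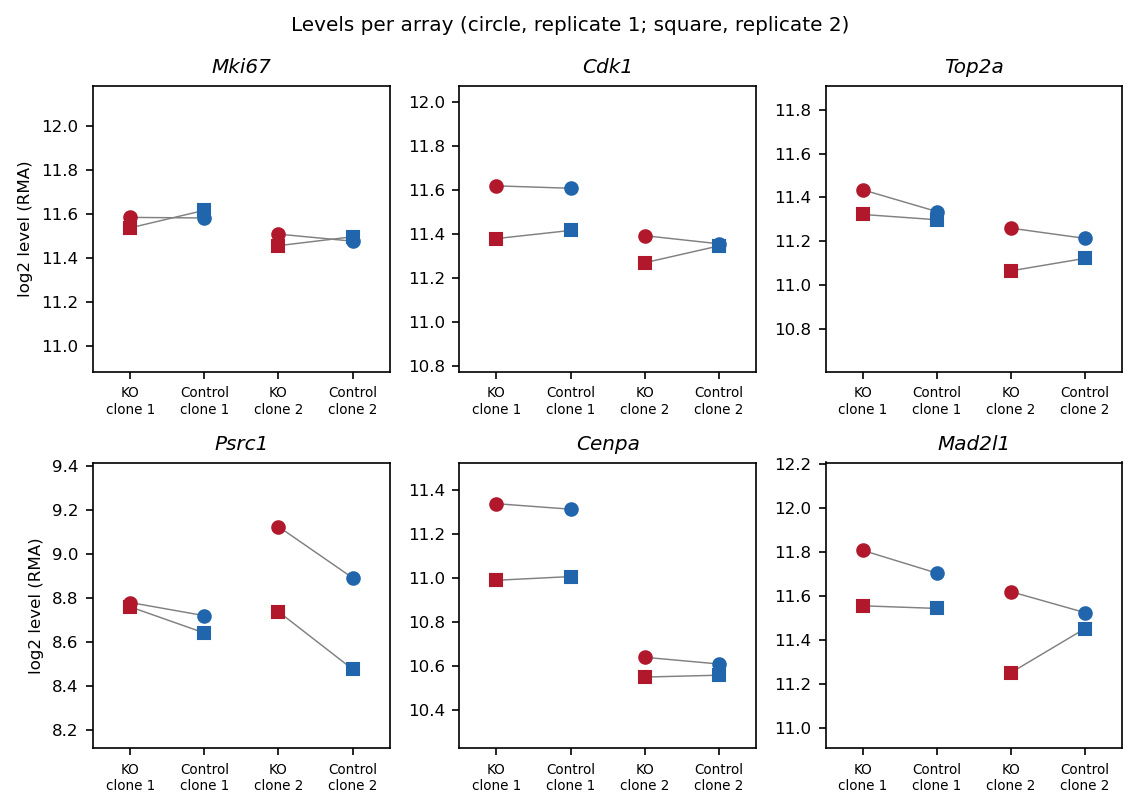
Log2 level (RMA) of 6 of the genes in each array, with 1 panel per gene and the same span of the y axis in every panel. Red points are Runx1Cbfb-KO arrays and blue points Control arrays, grey lines join the arrays of a set, circles are replicate 1 and squares replicate 2. Lines are nearly flat for Cdk1, Mki67 and Cenpa, they all run down to Control for Psrc1, and they cross direction between sets for Mad2l1.

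The 29 measured genes with TTTGAA or TTCGAA in the window had a median difference of -0.0044, and the 8 without had 0.0077, both as a description. The list of MuvB, B-MYB, E2F and RB family genes had 0 of 22 past the test (median -0.00045, limma), and 2 at an unadjusted p under 0.05. Its smallest p was that of E2f1, an activator of S phase genes (-0.13 ± 0.05; adjusted p = 0.506).

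Other genes of the cell cycle were taken from lists that do not overlap the 44. Of 89 further measured genes of G2 and mitosis, 0 passed (2 at an unadjusted p under 0.05), with a median of -0.014, and the smallest p was that of Pbk, a mitotic kinase (-0.15 ± 0.07; adjusted p = 0.683). Of 47 genes of DNA replication and S phase, 0 passed (3 unadjusted), with a median of -0.031, and the smallest p was that of Mcm2, a subunit of the replicative helicase (-0.09 ± 0.03; adjusted p = 0.371). Of 18 cell cycle inhibitors and p53 arrest genes, 1 passed (5 unadjusted, 27.8% against 6.47% of all genes), with a median of 0.032 and a range from -0.27 to 0.24. The gene that passed was Cdkn2c, the gene of the CDK4 and CDK6 inhibitor p18, at 11.36, 11.38, 11.09 and 11.03 in Runx1Cbfb-KO arrays, against 11.06, 11.12, 10.78 and 10.93 in Control arrays. It rose in 4 of 4 sets, by 0.24 ± 0.04 on average (1.18-fold; limma adjusted p = 0.00895).

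Within each set most of the 44 genes leaned the same way, in directions that differed between sets. Their median difference was 0.048 in clone 1 replicate 1, where 37 of 44 were above 0, and 0.034 in clone 2 replicate 1, where 35 were. It was -0.017 in clone 1 replicate 2, where 28 of 44 were below 0, and -0.097 in clone 2 replicate 2, where 37 were. Other genes of like signal had shifts of the same sign. Over the 7670 genes whose mean levels lay in the range of the 44 (7.70 to 11.90), the medians of the 4 sets were 0.054, 0.021, -0.0063 and -0.078 in the same order. In clone 2 replicate 2, 15.9% of the 44 were above 0, against 25.6% of those genes. Those genes, the genes of like signal here and below, were not matched for level within the range. Of the 44, 38 lay in the top quartile of all genes by mean level. In clone 2 replicate 2 the median was -0.044 for all genes of the third quartile and -0.070 for those of the top quartile. The part of level in contrasts with genes of like signal was not tested.

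**Figure D3:**
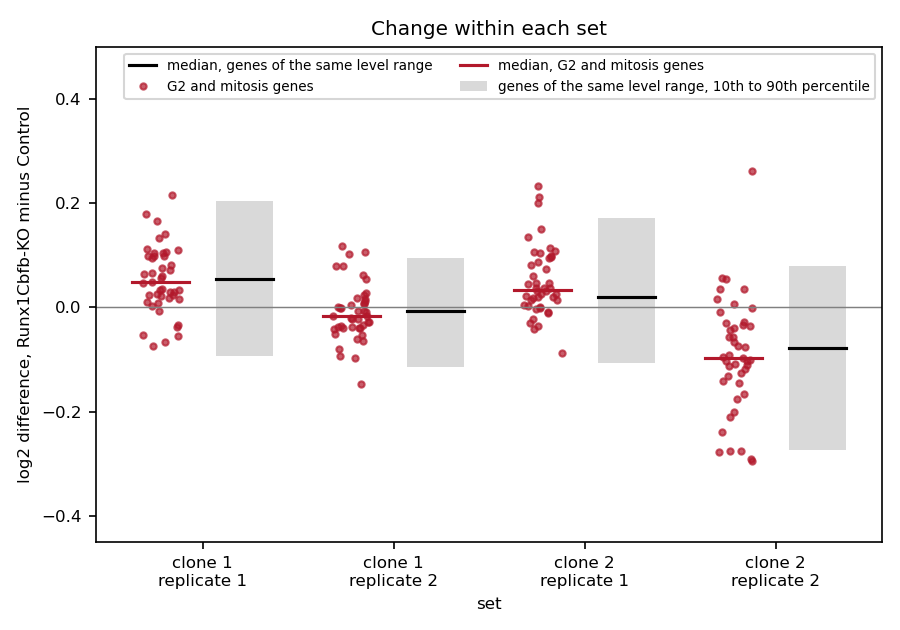
Log2 difference, Runx1Cbfb-KO minus Control, in each of the 4 sets. Red points are the 44 genes with their median as a red line, and grey bars run from the 10th to the 90th percentile of the 7670 genes of the same level range with their median in black. The red and black medians move together between sets and are lowest in clone 2 replicate 2, at -0.097 and -0.078.

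The change was therefore compared between replicate numbers. Its difference, replicate number 2 minus number 1, was below 0 for 39 of the 44 genes, with a median of -0.10, against 0.013 over all genes. Over the 7670 genes of like signal the median was -0.086, and 78.7% of them were below 0, against 88.6% of the 44. Other cell cycle lists also lay below 0, with medians of -0.097 for the 89 further genes of G2 and mitosis, -0.10 for the MuvB, E2F and RB family list and -0.058 for the S phase list. None of the 44 passed, nor did any of the 19938 genes (0%, limma interaction), while 5 of the 44 (11.4%) and 3589 of all genes (18.0%) had an unadjusted p under 0.05. Kif20b had the smallest adjusted p (-0.32 ± 0.10; 0.183), followed by Mad2l1 (-0.19 ± 0.07; 0.193) and Plk4 (-0.21 ± 0.08; 0.197). A difference above 0 in both sets of number 1 and below 0 in both sets of number 2 was found for 17 of the 44 genes (38.6%), against 18.2% of the genes of like signal and 9.46% of all genes, and Cdk1, Cenpa, Cenpf, Kif11, Tpx2, Ect2 and Mki67 were among the 17. Without the set of clone 1 replicate 2, 1523 genes passed, among them Kif20b and Mad2l1. The labels do not say whether replicate numbers mark the same experiment in both clones.

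The shifts were smaller after the arrays were normalized once more. After cyclic loess normalization of the deposited values, an alternative chosen after seeing the data, the medians of the 44 genes were 0.015, 0.010, -0.015 and -0.029 in the same order of sets, with 25, 28, 17 and 17 of 44 above 0. After quantile normalization they were 0.014, 0.0057, -0.0073 and -0.026. The number of the 44 genes past the test between Runx1Cbfb-KO and Control arrays was 0 after either. Without the set of clone 2 replicate 2, it was 0 as well, and the median difference of the 44 was 0.025, against 0.0029 with all sets.

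Across the 8 arrays the 44 genes kept a common pattern. In the Runx1Cbfb-KO array of clone 2 replicate 2, 29 of the 44 (65.9%) had their lowest value, against 39.2% of the 7670 genes of like signal. In the Runx1Cbfb-KO array of clone 1 replicate 1, 23 of the 44 (52.3%) had their highest value, against 34.1%. The mean of the 44, each centred on its own mean, was 0.11, 0.0056, 0.021 and -0.14 in Runx1Cbfb-KO arrays, against 0.060, 0.015, -0.028 and -0.047 in Control arrays. Without the Runx1Cbfb-KO array of clone 2 replicate 2, 17 of the 44 (38.6%) were lowest in the Control array of that set, against 17.7% of the genes of like signal. Among the marker lists of other cell types, the stromal, B cell, T and NK cell, macrophage and megakaryocyte lists had their highest median, centred likewise, in Runx1Cbfb-KO clone 2 replicate 2 and their lowest in Runx1Cbfb-KO clone 1 replicate 1. The stromal list was at -0.15, 0.015, -0.12 and 0.23 in Runx1Cbfb-KO arrays, against -0.089, -0.028, 0.087 and 0.051 in Control arrays. The erythroid list followed neither part of this order, at 0.029 in Runx1Cbfb-KO clone 2 replicate 2 and 0.022 in Runx1Cbfb-KO clone 1 replicate 1. The mast cell list was also lowest in Runx1Cbfb-KO clone 1 replicate 1 (-0.060). Its highest median was in Control clone 2 replicate 2 (0.074), against 0.037 in Runx1Cbfb-KO clone 2 replicate 2. The part of array quality in the common pattern was not tested.

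**Figure D4:**
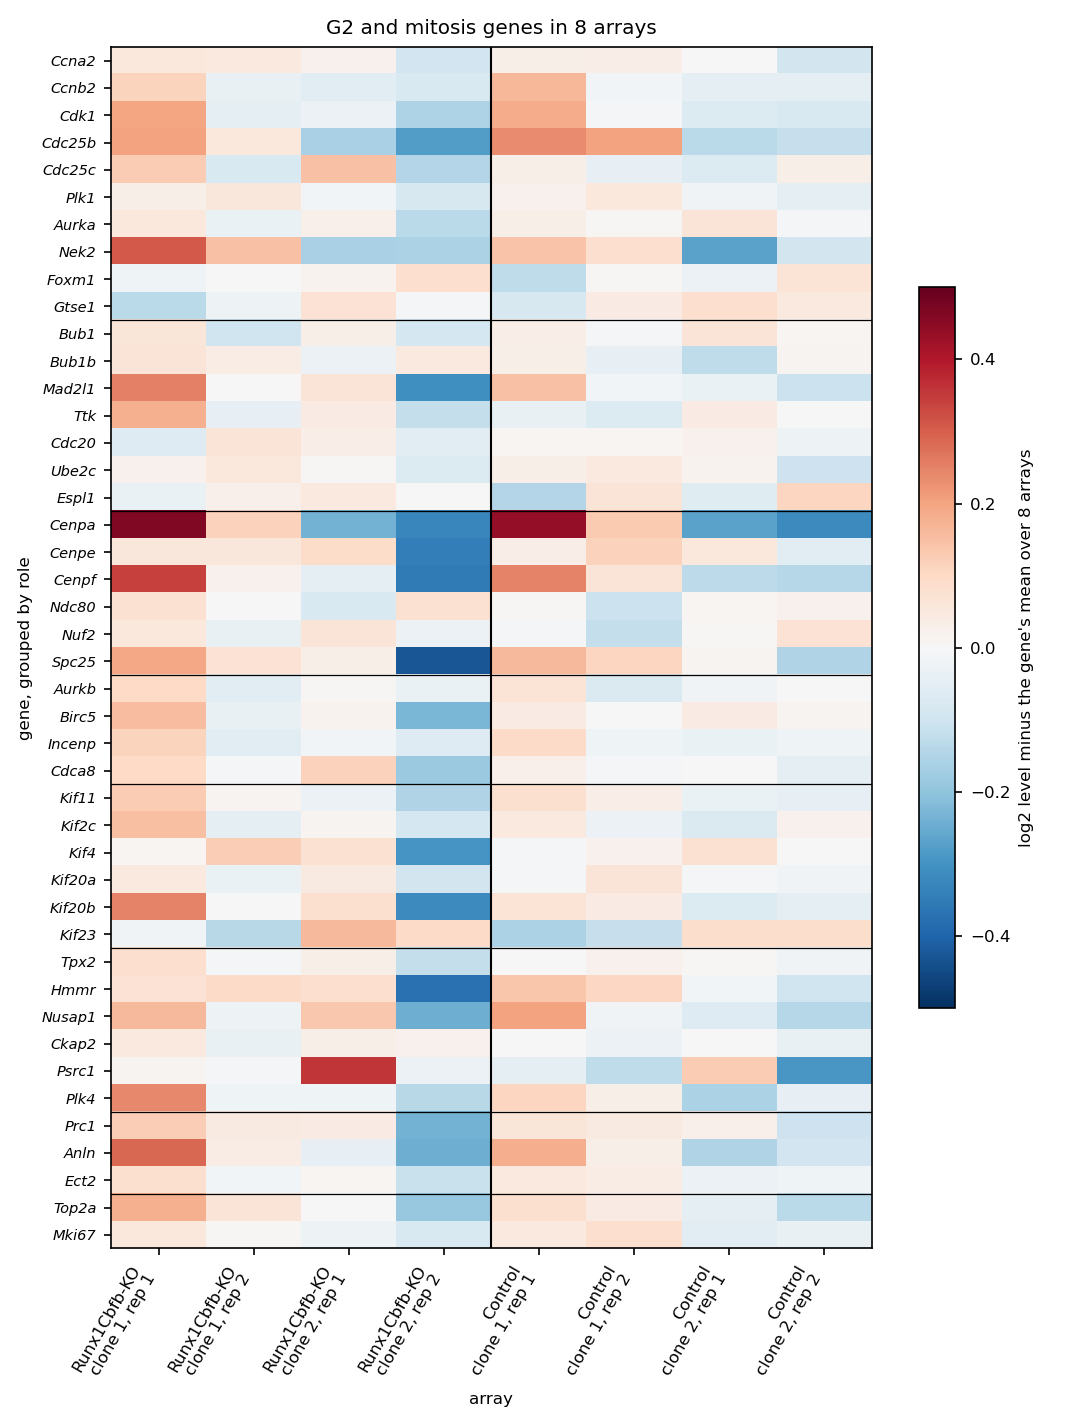
Log2 level of each of the 44 genes in each array, minus the mean of the gene over the 8 arrays, with Runx1Cbfb-KO arrays on the left, Control arrays on the right and roles divided by lines. Red is above and blue below the mean of the gene. The column of Runx1Cbfb-KO clone 2 replicate 2 is mostly blue and that of Runx1Cbfb-KO clone 1 replicate 1 mostly red, at means of -0.14 and 0.11.

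The level of each gene over the 8 arrays was set against the mean of the other measured genes of the list. Pearson's r had a median of 0.77 over the 44 genes and was above 0.5 for 34 of them (77.3%), against 24.6% of the genes outside the list. The genes outside the list were not matched for level. Genes of like signal shared the shifts between arrays described above, and their share is not given here. Without the Runx1Cbfb-KO array of clone 2 replicate 2, left out after seeing the data, the median was 0.68, with 29 of 44 (65.9%) above 0.5, against 23.0%. Mad2l1 followed the others most closely (r = 0.99), with Kif20b and Ect2 at 0.97 each. Foxm1 ran opposite (r = -0.71, and -0.55 without the Runx1Cbfb-KO array of clone 2 replicate 2). Values of r below 0 were also found for Gtse1 (-0.54), Kif23 (-0.49), Espl1 (-0.34) and Ndc80 (-0.19), the last of them near 0. These 8 points share clones, sets and normalization, so r is a description. Outside the list, the 3 genes that followed the mean of the 44 most closely over the 8 arrays were Tctex1d2 (r = 0.997), Gnpnat1 (0.996) and Slx4ip (0.994).

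The clones were compared within each group, and Cenpa was the 1 gene of the 44 that passed. In neither group was that share above the share of all genes that passed. Among Control arrays, 792 of 19938 genes differed between clone 2 and clone 1 (3.97%; limma, adjusted p under 0.05), and 1 of the 44 did. Cenpa was at 10.61 and 10.56 in clone 2, against 11.31 and 11.01 in clone 1, without overlap (log2 difference -0.58 ± 0.12, 95% interval -0.85 to -0.31, a 1.49-fold lower level; adjusted p = 0.024). Among Runx1Cbfb-KO arrays, 1047 genes differed (5.25%), again with 1 of the 44. There Cenpa was at 10.64 and 10.55 in clone 2, against 11.34 and 10.99 in clone 1 (-0.57 ± 0.12; adjusted p = 0.0208). The arrays of a set share a clone and a replicate number, so the comparison in Runx1Cbfb-KO arrays is not a separate experiment. The fit had no term for the set, so the SE and adjusted p in both groups may be too small.

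With 2 arrays per clone and group, this call rests on few values. It ended in both groups without clone 1 replicate 1 (-0.42 in Control arrays and -0.40 in Runx1Cbfb-KO arrays; adjusted p = 0.0511 and 0.0669 in that order of groups). It ended likewise without either set of clone 2, without the variance trend and with all probe sets tested, and with array weights among Runx1Cbfb-KO arrays alone (adjusted p = 0.091). The direction held in each of these fits. Cell type markers also differed between the clones. Among Control arrays, 2 of the 14 myeloid markers were higher in clone 2 (Cd34 by 5.48 and Csf1r by 0.70 on the log2 scale) and 2 lower (Cebpa at -0.70 and Ptprc at -0.40). Of the 43 markers of other cell types, 2 were higher, Cd79b, the only one of 6 B cell markers to pass, by 2.99 and Gp9 of megakaryocytes by 0.70. Another 2 were lower, the macrophage marker Adgre1 at -1.23 and the mast cell marker Ms4a2 at -0.96. The part of these differences in that of Cenpa was not tested.

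The other 3 genes with an unadjusted p under 0.05 among Control arrays did not pass after adjustment in either group. Under other settings Cdc25b passed among Control arrays with array weights, and Nek2 passed among Runx1Cbfb-KO arrays with the set as a random replicate block and with the brighter genes only. Cdc25b was at 7.57 and 7.59 in clone 2 and 7.94 and 7.90 in clone 1 among Control arrays (-0.34 ± 0.11; adjusted p = 0.178). Among Runx1Cbfb-KO arrays its difference was -0.35 (adjusted p = 0.132). Nek2 was at 9.06 and 9.07 in clone 2 and 9.53 and 9.37 in clone 1 among Runx1Cbfb-KO arrays (-0.39; adjusted p = 0.0578), and its difference among Control arrays was -0.29 (adjusted p = 0.207). Kif23 was the gene highest in clone 2, at 9.94 and 9.94 in clone 2, against 9.70 and 9.74 in clone 1, among Control arrays (0.22; adjusted p = 0.252). In all 3, clone 2 did not overlap clone 1 within either group, with 2 arrays of each clone. These 3 genes were chosen by their unadjusted p. The share of all genes without overlap is not given here, so the separation adds no support to these differences.

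Most of the other genes lay slightly lower in clone 2. The difference was below 0 for 32 of the 44 among Control arrays (median -0.065, against 0.032 over all genes) and for 37 among Runx1Cbfb-KO arrays (median -0.088, against 0.033). Without the set of clone 2 replicate 2 these were 31 of 44 (median -0.044) among Control arrays and 28 of 44 (median -0.029, against -0.0040 over all genes) among Runx1Cbfb-KO arrays. The share of all genes below 0 and values for genes of like level are not given here. With all sets, the lists of further G2 and mitosis, MuvB and S phase genes had medians of -0.051, 0.0022 and 0.022 among Control arrays. Among Runx1Cbfb-KO arrays these lists were at -0.13, -0.029 and -0.030. At an unadjusted p under 0.05 there were 4 of 44 (9.09%) among Control arrays, against 12.3% of all genes, and 9 of 44 (20.5%) among Runx1Cbfb-KO arrays, against 17.8%, and without that set 3 of 44 (6.82%) in each group. By role, the median among Control arrays was lowest for kinetochore and centromere genes (-0.14) and nearest 0 for checkpoint and anaphase genes (-0.012). The 2 genes of chromosome structure and proliferation had a median of -0.13. The kinetochore group includes Cenpa (-0.58), and its genes did not all lie lower. Cenpf was at -0.29, Spc25 at -0.20, Cenpe at -0.075, Ndc80 at 0.066 and Nuf2 at 0.10. Of the 89 further genes of G2 and mitosis, 2 were higher and 2 lower in clone 2 among Control arrays. They were Ccnb1ip1, a ubiquitin ligase known from meiosis (3.38 ± 0.21; adjusted p = 4.48e-06), and Shcbp1 (0.72 ± 0.17), with Wee1, the kinase that holds CDK1 inactive (-0.39 ± 0.09), and Tacc3, a spindle protein (-0.36 ± 0.09).

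**Figure D5:**
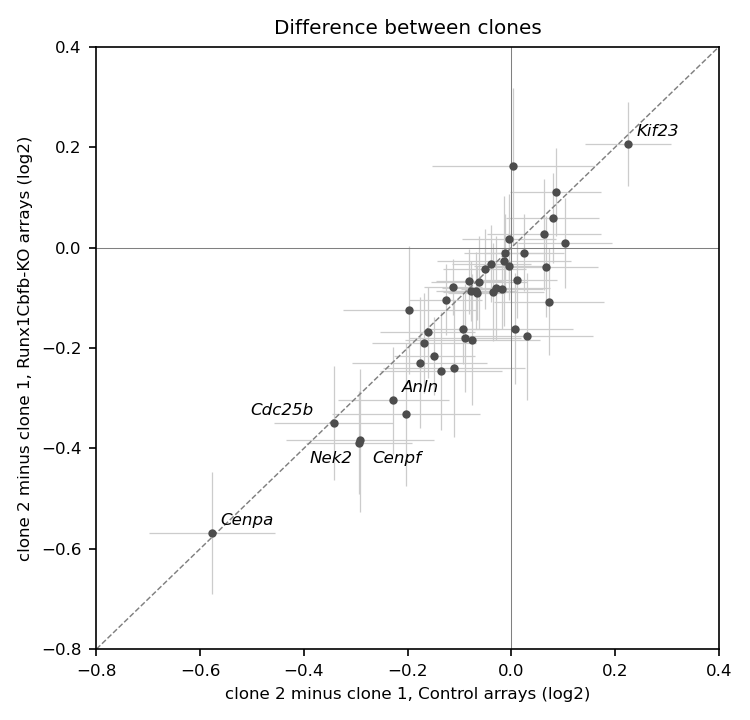
Difference between clones, clone 2 minus clone 1 on the log2 scale, for each of the 44 genes in Runx1Cbfb-KO arrays (y axis) and in Control arrays (x axis), with bars of 1 SE and the line of equality dashed. Cenpa lies apart at -0.57 and -0.58, and most genes lie below 0 on both axes.

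The effect of the treatment did not differ detectably between the clones. The interaction of clone and group passed for 2 of 19938 genes (0.01%) and for 0 of the 44, of which 0 had an unadjusted p under 0.05, against 1.97% of all genes (limma). Without the set of clone 2 replicate 1, 224 genes passed, among them Mad2l1 alone of the 44. Among the 44, the change in clone 2 minus that in clone 1 ran from -0.21 for Kif4 to 0.16 for Psrc1. Within clone 2, Kif4 changed by -0.29 in replicate 2 and by -0.0015 in replicate 1. The intervals of the differences between clones reached from -0.49 (Kif4) to 0.42 (Psrc1), so the design leaves room for differences of up to 1.40-fold. For Cenpa, whose level differed between the clones, the set differences ran from -0.02 to 0.03.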

How the data were processed

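Total RNA of 8 cultures was labelled with whole-transcript kits and hybridised to Affymetrix arrays, 1 per culture, per the labels' protocols. The deposited table holds log2 expression levels of 35556 probe sets, which the authors made with RMA, per the submitters' processing notes. The RMA version is not stated. The values, from 2.60 to 13.77, were taken as log2. The platform annotation listed 23410 probe sets, 21789 with 1 symbol and 1621 with several, which left 19938 genes, each by its brightest probe set. Of these, 91 had no match in the RefSeq gene table and kept their symbols.

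Fits used limma 3.58.1 in R 4.3.3 with a mean-variance trend and two-sided p-values, adjusted after Benjamini and Hochberg over all genes, at 0.05. Runx1Cbfb-KO and Control were compared with the set as a block. Clones were compared in a fit with a mean for each clone in each group and no term for the set. That fit takes the 8 arrays as independent although arrays of a set deviated together, so its SE and p-values may be too small. Interactions were fitted with the set as a block. The scripts were tested on simulated data. Sets were read from the titles, since the design text describes 4 sets. The 2 arrays of a set deviated together from their group means (r from 0.72 to 0.82 across genes), and after clone means were removed r was 0.44 in clone 1 and 0.25 in clone 2. Replicates are called biological in the labels, and p-values measure the spread between these cultures. The number of arrays limits the precision.

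The 45 genes, the other lists and the tests were chosen with earlier results of these data known. All measured genes of the list are named, with Runx1 and Cbfb. Of other lists, up to 4 genes past the threshold are named, or the gene with the smallest p, and the 3 most alike genes. The alternatives were 2 variance models, array weights, 3 normalizations, other choices of probe sets, other pairings and leaving out each set.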

Additional observations from a re-analysis of the deposited data

Results flagged for a closer look

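Among the 44 genes, Runx1 and Cbfb there were 92 groups of 4 arrays, and in 7 of them 1 array stood apart from the other 3 by more than the 95% critical value of Dixon's test allows, and chance flags about 1 in 20 groups, or 4.6 of 92. Among Runx1Cbfb-KO arrays, the array of clone 2 replicate 2 was low for Cenpe (9.17, the others 9.57 to 9.60) and for Hmmr (9.30, the others 9.74 to 9.77). The array of clone 2 replicate 1 was high for Psrc1 (9.13, the others 8.74 to 8.78). Among Control arrays, clone 1 replicate 1 was high for Ccnb2 (12.06, the others 11.85 to 11.88) and for Incenp (9.74, the others 9.62 to 9.63). The Control array of clone 1 replicate 2 was low for Ndc80 (8.94, the others 9.06 to 9.07) and high for Kif20a (10.69, the others 10.61 to 10.62).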

How the results depend on the processing

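The number of the 44 genes past the test between Runx1Cbfb-KO and Control arrays was 0 under all 16 alternatives. This includes the fit without the set as a block. No gene of the whole array passed in that fit, so it cannot show whether the pairing matters for these 44 genes. Over 704 values, 44 genes under 16 alternatives, the log2 difference ran from -0.12 to 0.20 with a smallest adjusted p of 0.252, and 56 values changed sign without a call. The median of the 44 ran from -0.020 to 0.025. In the clone comparison among Control arrays the count of 1 became 0 without the variance trend and with all probe sets, 2 with array weights, the other being Cdc25b, and 0 to 1 without single sets. Among Runx1Cbfb-KO arrays the count of 1 became 0 without the trend, with array weights and with all probe sets, 2 with the brighter genes only and 2 with the set as a random replicate block, in both cases by adding Nek2, and 0 to 2 without single sets. Without clone 2 replicate 1 the 2 genes were Spc25 and Hmmr. For the difference of the change between clones the count was 0 to 1 without single sets, the 1 being Mad2l1 without clone 2 replicate 1. For that between replicate numbers it was 0 to 2, the 2 being Mad2l1 and Kif20b without clone 1 replicate 2. Over all genes tested, the count ran from 0 to 418 between Runx1Cbfb-KO and Control arrays, from 385 to 1599 between clones among Control arrays, from 382 to 1542 among Runx1Cbfb-KO arrays, from 0 to 224 for the difference between clones and from 0 to 1523 for that between replicate numbers, reaching 316 with each array centred on its median and 1523 without clone 1 replicate 2. Leaving out a set leaves 1 array in a clone and group, whose spread is taken from the other cells. The adjusted p of Cenpa over these alternatives ran from 0.00264 to 0.187 among Control arrays and from 0.00215 to 0.215 among Runx1Cbfb-KO arrays. The cause of these shifts was not tested, other than that fewer arrays or more features were tested in some.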
